A study of Mus musculus with 22 samples.

Results

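The effect of loss of Nfkbie on the transcriptome of murine chronic lymphocytic leukemia (CLL) in the peritoneal cavity (PC) was examined by comparing the 4 NFKBIE-ko PC libraries with the 4 NFKBIE-wt PC libraries, which are 8 of the 22 RNA-seq libraries of the series. Members were taken from the sample titles, which name the genotype and the compartment. Counts were compared for each transcript and, after summing the transcripts of a gene, for each gene. The 6 in vitro libraries (3 for each genotype) served to separate genes expressed in culture from genes that were low in culture.

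Nfkbie encodes IκBε, an inhibitor that holds NF-κB dimers in the cytoplasm until it is degraded after stimulation of the B-cell receptor, Toll-like receptors or CD40. NF-κB itself induces the genes of several of its inhibitors, which closes a negative feedback loop. The PC is the main home of B-1 cells, and it also holds resident macrophages, which clear dying cells and secrete complement and coagulation factors. Neutrophils enter the cavity from the blood during inflammation.

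The leukemic cells were TCL1-355 TKO cells, a cell line from the Eμ-TCL1 transgenic mouse, in which the TCL1 oncogene is driven in B cells. Both genotypes carry the lesions introduced into that line, among them in CDKN2A and CDKN2B. Editing with a Cas9 ribonucleoprotein had disrupted Nfkbie in NFKBIE-ko cells, and NFKBIE-wt cells were the mock control. Per the study's methods, each genotype was first propagated in a C57BL/6 mouse and then injected intraperitoneally into a group of 5 recipient C57BL/6 mice, and cells were recovered 10 days later by lavage without purification. Mice of 2 to 3 months were used for transfers. The libraries therefore hold leukemic and host cells, and in such bulk samples fewer cells of a type and less RNA per cell cannot be told apart. Since the cells of a genotype shared their editing and their propagation in a mouse, these and the genotype cannot be told apart either. The cultures had been started from spleen cells of 3 mice and kept for 2 weeks.

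Total estimated counts of the PC libraries ranged from 24036763 to 26573453. All 8 had high levels of B-lineage genes, with a summed level of 6403 to 6710 CPM (read counts scaled to a common library size) in NFKBIE-ko and 5635 to 6045 CPM in NFKBIE-wt for the 17 genes tested of a B-lineage and B-1 list. Among the 6 cultures, the one labelled replicate 3 of NFKBIE-wt stood apart. Its summed level of erythroid genes was 1446 CPM against at most 25.5 CPM, its level of Fos was 969 CPM against 1.42 to 4.34 CPM, and its level of S100a9 was 75.9 CPM against at most 0.563 CPM. In the spleen, the library labelled NFKBIE-wt replicate 4 had the levels of a culture, with 6.88, 2.24 and 0 CPM of the same measures (levels scaled over all 22 libraries). Spleen libraries enter none of the values below other than a fit of all 22 libraries. Comparisons of the genotype effect with that in culture are given with and without replicate 3 of NFKBIE-wt. The culture level that classes genes as low or expressed uses all 6 cultures. Replicate 1 of the NFKBIE-wt cultures also carried genes that replicate 2 nearly lacked. It had 13.3 against 0.19 CPM of Lyz2, 8.57 against 0 CPM of Gzmb and 64.5 against 0.0379 CPM of Iigp1 (scaled over the PC and in vitro libraries). This library stays in the comparisons without replicate 3.

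The cr-RNA sequence given in the labels was found once in the GRCm39 genome, on the plus strand of chr17:45869436-45869455. It lies in coding sequence of exon 2 of Nfkbie (ENSMUSG00000023947, chr17:45866585-45874661). The target is shown because it marks the edited site, with the adjoining PAM in capitals.
Nfkbie target: agtgattcacgaagccccgtCGG

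Transcript of the targeted gene was still present in NFKBIE-ko libraries. Nfkbie reached 64.5, 46.1, 55.5 and 47.1 CPM in the 4 NFKBIE-ko libraries and 68.0, 79.8, 76.2 and 91.4 CPM in the 4 NFKBIE-wt libraries. All NFKBIE-ko libraries were below all NFKBIE-wt libraries, and the log2 fold change was -0.56 (SE 0.12, adjusted p = 0.00377 with edgeR), short of the fold threshold used for calls. Of its 3 transcripts in the table, the canonical protein-coding transcript ENSMUST00000024742 had 33.4 against 53.5 CPM (log2 fold change -0.68, adjusted p = 0.0248). The other protein-coding transcript, ENSMUST00000233929, had 4.52 against 15.4 CPM (-1.77, adjusted p = 0.0237). The retained-intron transcript ENSMUST00000233379 had 16.1 against 8.04 CPM, which was higher by 1.00 on the log2 scale but did not pass the test (adjusted p = 0.0645). The adjusted p of ENSMUST00000024742 missed its threshold in 6 of 8 fits that each left out 1 library (highest 0.0718), and that of ENSMUST00000233929 in 4 of 8 (highest 0.0715), while that of ENSMUST00000233379 met it in 1 of 8 (0.0461). In a fit of all 22 libraries the difference of the gene was of similar size (-0.55) and did not pass (adjusted p = 0.134).

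A total of 12642 genes passed the filter on low counts. Genes were called at an adjusted p below 0.05 (edgeR's quasi-likelihood test, Benjamini-Hochberg adjustment) when their log2 fold change was above 1 or below -1. A gene that was not called missed at least 1 of these thresholds, and its adjusted p is given where only the fold was missed. By this rule 1260 genes (9.97% of those tested) were higher and 442 (3.5%) were lower in NFKBIE-ko, 13.5% in both directions together, while the median log2 fold change of all genes was -0.01. In 41.9% of the genes tested the libraries of the genotypes did not overlap. Just inside the fold threshold were Mpeg1 (1.00015) and Apold1 (-1.00321), and just outside it Dmxl2 (0.999329) and Atl1 (-0.999575).

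Genes with a median below 1 CPM in culture in both genotypes were classed as low in culture, and all others as expressed in culture. Low in culture can mean a gene of host cells or a gene that leukemic cells switch on only in the mouse, and the counts cannot tell these apart. Of the 1675 genes tested that were low in culture, 652 rose (38.9%) and 147 fell (8.78%). Of the 10967 genes expressed in culture, 608 rose (5.54%) and 295 fell (2.69%). Called genes that were higher were thus split between the classes (51.7% low in culture), and 66.7% of the lower ones were expressed in culture. Most genes tested were expressed in culture (10967 of 12642), while genes low in culture were called more often in both directions. The filter on low counts can admit a gene through the genotype where it is higher, which can raise the share called among genes low in culture. How far it did was not tested. The closest genes to the limit were Nkpd1 (0.999367 CPM in culture, classed as low) and Cpq (1.01742 CPM, classed as expressed), and 367 called genes had a culture level between 0.5 and 2 CPM.

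**Figure D1:**
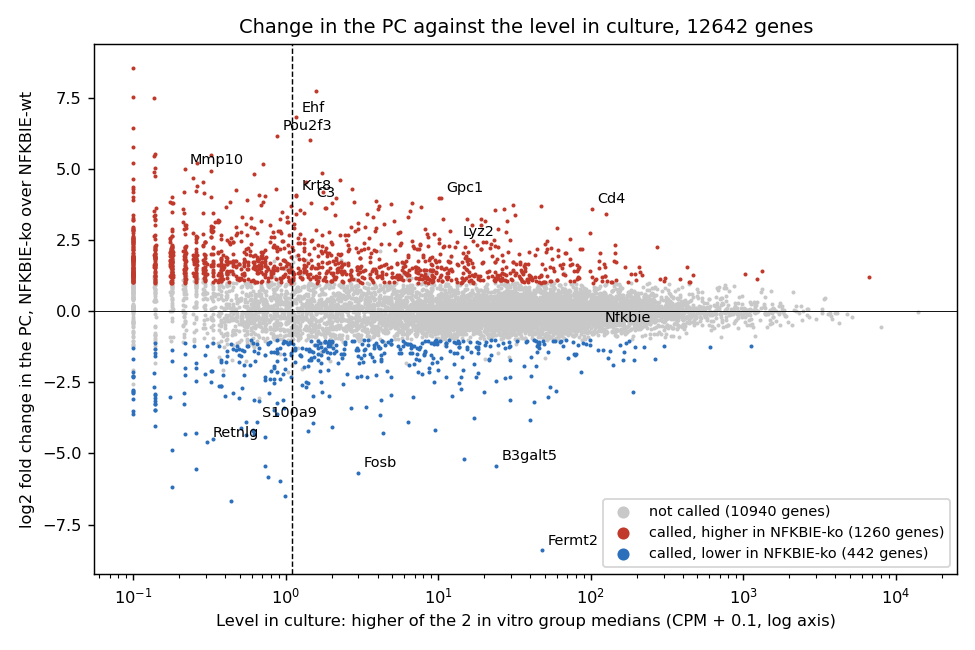
Each of the 12642 genes tested is a point, placed by its level in culture (the higher of the in vitro group medians, CPM plus 0.1 on a log axis) and its log2 fold change in the PC. The dashed line marks 1 CPM in culture: left of it 652 genes rose (red) and 147 fell (blue), right of it 608 rose and 295 fell, and gray points were not called.

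Among genes low in culture, Pou2f3, Azgp1, Mmp10 and Gnat3 were among those with the largest increases, at least 5 CPM and no overlap. Pou2f3 (chr9:43035228-43121666), a POU-domain transcription factor known as the master regulator of tuft cells, had 5.44, 7.75, 5.19 and 6.39 CPM in NFKBIE-ko and 0.0817, 0.039, 0.116 and 0.0857 CPM in NFKBIE-wt. That is a signal in 4 of 4 NFKBIE-ko libraries against 8 counts in the NFKBIE-wt libraries together, a ratio of 77.0 with a 95% counting interval from 38.8 to 179 (log2 fold change 6.18, SE 0.30, adjusted p = 4.56e-07). Gnat3 (chr5:18167547-18225473), the G-protein subunit gustducin of taste and tuft cells, had 5.36, 11.2, 5.02 and 8.94 CPM against 0.123, 0.234, 0.155 and 0.557 CPM. Its increase of 4.83 (SE 0.44, adjusted p = 2.02e-05) again separated all libraries of the genotypes. Both genes were near the limit in the cultures, where the NFKBIE-ko libraries had up to 2.24 CPM of Pou2f3 and 2.45 CPM of Gnat3. The NFKBIE-wt cultures had at most 0.0391 CPM of Pou2f3, below all NFKBIE-ko cultures, and at most 0.303 CPM of Gnat3, with overlap.

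Azgp1 (chr5:137979758-137991777), a secreted lipid-mobilizing glycoprotein, had 4.65, 7.95, 2.87 and 5.14 CPM in NFKBIE-ko and 11 counts in all NFKBIE-wt libraries (ratio 46.8, 95% counting interval 26.0 to 94.4). Mmp10 (chr9:7502353-7510241), a secreted matrix metalloproteinase, had 3.59, 6.71, 3.63 and 6.12 CPM against 0.163, 0.078, 0.116 and 0.257 CPM (log2 fold change 5.00, SE 0.38, adjusted p = 5.53e-06). For both genes every NFKBIE-ko library was above every NFKBIE-wt library.

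Among genes low in culture that fell, 4 of the 5 named by the same rule are granule or secreted products of neutrophils. S100a9 (chr3:90599931-90603071) had 13.4, 3.95, 8.40 and 3.02 CPM in NFKBIE-ko and 108, 184, 61.4 and 78.6 CPM in NFKBIE-wt. Its partner S100a8 (chr3:90567118-90578128) had 9.67, 5.81, 7.47 and 4.82 CPM against 80.7, 126, 45.6 and 58.3 CPM. All NFKBIE-wt libraries were above all NFKBIE-ko libraries for these calcium-binding proteins, with log2 fold changes of -3.91 (SE 0.58, adjusted p = 0.00161) and -3.48 (SE 0.38, adjusted p = 0.000223). Retnlg (chr16:48692547-48694862), a resistin-like protein, fell by 4.60 (1.47 ± 1.02 against 35.6 ± 19.3 CPM, SD, n = 4, adjusted p = 0.000569). Ngp (chr9:110248815-110252086), a neutrophil granule protein, fell by 4.22 (1.49 ± 1.51 against 28.0 ± 19.7 CPM, adjusted p = 0.00606). The fifth, Prlr (chr15:10177258-10349959), the prolactin receptor, had 1.66, 1.16, 1.52 and 2.39 CPM against 25.6, 28.3, 42.8 and 23.96 CPM, a decrease of 4.16 (SE 0.26, adjusted p = 2.74e-06).

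**Figure D2:**
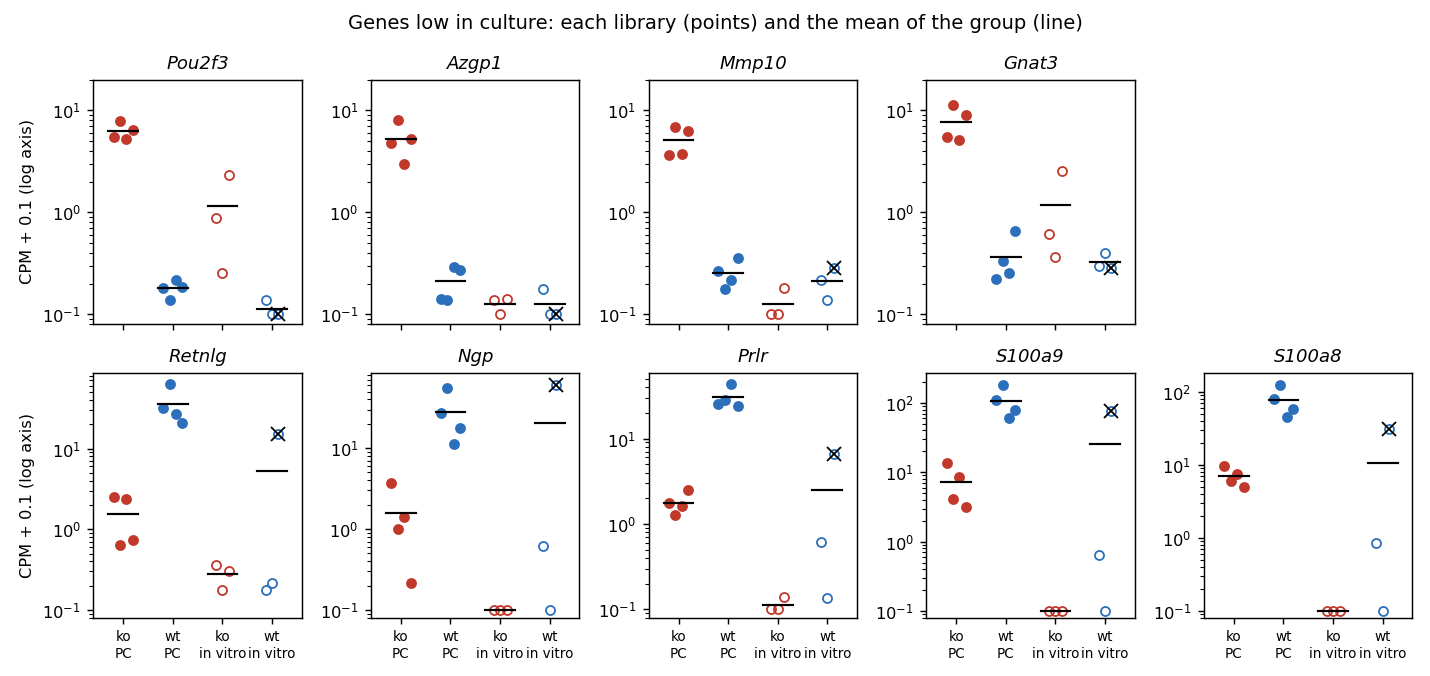
Level of 9 named genes that were low in culture, as CPM plus 0.1 on a log axis, in each PC library (filled) and each culture (open) of NFKBIE-ko (red) and NFKBIE-wt (blue), with group means as lines and a cross on replicate 3 of the NFKBIE-wt cultures. The upper row shows 4 genes that rose and the lower row 5 that fell, and that 1 culture carries 75.4 CPM of S100a9 and 6.58 CPM of Prlr while the other cultures stay below 1 CPM.

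Among genes expressed in culture, the named increases were those of Ehf, Gpr34, Krt18, Krt8 and Gpc1. Krt8 (chr15:101905133-101912917) and Krt18 (chr15:101936615-101940462) encode the keratin pair of simple epithelia. Krt8 had 116, 155, 117 and 142 CPM in NFKBIE-ko and 10.3, 6.55, 5.43 and 9.39 CPM in NFKBIE-wt, and Krt18 had 78.0, 114, 99.0 and 107 CPM against 4.25, 4.13, 2.87 and 5.87 CPM. The increases were 4.07 (SE 0.21, adjusted p = 1.45e-06) and 4.54 (SE 0.20, adjusted p = 6.12e-07), and the lowest NFKBIE-ko library was above the highest NFKBIE-wt library by more than the spread within either group. In culture both genes were close to the limit, at 0.666 to 2.12 CPM of Krt8 and 1.06 to 3.67 CPM of Krt18 in NFKBIE-ko.

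Ehf (chr2:103093778-103133623), an epithelial ETS transcription factor, had 5.59, 4.07, 4.35 and 6.59 CPM against 4 counts in all NFKBIE-wt libraries together (ratio 128, 95% counting interval 49.7 to 472). Gpr34 (chrX:13489625-13507116), a receptor for lysophosphatidylserine, had 5.79 ± 0.746 against 0.231 ± 0.149 CPM (SD, n = 4), an increase of 4.61 (SE 0.34, adjusted p = 4.70e-06). Gpc1 (chr1:92759062-92792113), a cell-surface heparan sulfate proteoglycan, had 48.4 ± 6.62 against 3.05 ± 1.04 CPM, an increase of 3.99 (SE 0.22, adjusted p = 1.45e-06). Ehf, Gpr34, Krt18 and Gpc1 were also higher in all 3 NFKBIE-ko cultures than in all 3 NFKBIE-wt cultures. The levels were 2.12 to 3.11 against 0.0372 to 0.978 CPM for Gpr34 and 8.48 to 10.4 against 1.33 to 6.82 CPM for Gpc1. For Ehf they were 0.888 to 2.08 against 0 to 0.493 CPM, and for Krt18 1.06 to 3.67 against 0.0372 to 0.872 CPM. The cultures overlapped for Krt8.

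The named decreases among genes expressed in culture were those of Fermt2, Fosb, B3galt5, Fos and Gria3. Fermt2 (chr14:45696239-45767770), the integrin activator kindlin-2, had 0, 0, 0.0422 and 0.0392 CPM in NFKBIE-ko and 7.89, 11.7, 6.52 and 7.16 CPM in NFKBIE-wt. With 2 counts in all NFKBIE-ko libraries, the ratio of NFKBIE-wt over NFKBIE-ko was 423 with a 95% counting interval from 117 to 3502. In culture it was at 0 to 0.038 CPM in NFKBIE-ko, and at 73.8, 0 and 48.0 CPM in NFKBIE-wt, so that the cultures of 1 genotype differed as much among themselves. B3galt5 (chr16:96036699-96121060), a galactosyltransferase of glycolipids, had 0.0378, 0.504, 0.169 and 0.196 CPM against 10.1, 8.65, 10.4 and 10.8 CPM in the PC (-5.43, SE 0.38, adjusted p = 3.89e-06), while the NFKBIE-ko cultures had 7.66 to 8.39 CPM. Gria3 (chrX:40489476-40767490), a glutamate receptor subunit, had 0.479 ± 0.259 against 9.05 ± 1.49 CPM (-4.22, SE 0.31, adjusted p = 3.98e-06).

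Fos (chr12:85520658-85524047) and Fosb (chr7:19036621-19043976), subunits of the AP-1 transcription factor that are induced within minutes of stimulation, were lower in NFKBIE-ko but with wide spread in NFKBIE-wt. Fos had 59.0, 14.8, 32.2 and 21.4 CPM against 927, 1249, 71.6 and 211 CPM (-4.27, SE 1.04, adjusted p = 0.0159). Fosb had 12.1, 2.13, 6.24 and 5.45 CPM against 503, 734, 21.1 and 69.2 CPM (-5.67, SE 1.34, adjusted p = 0.0142). NFKBIE-wt replicates 1 and 2 were high and replicates 3 and 4 lay nearer to the NFKBIE-ko libraries, although the groups did not overlap.

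**Figure D3:**
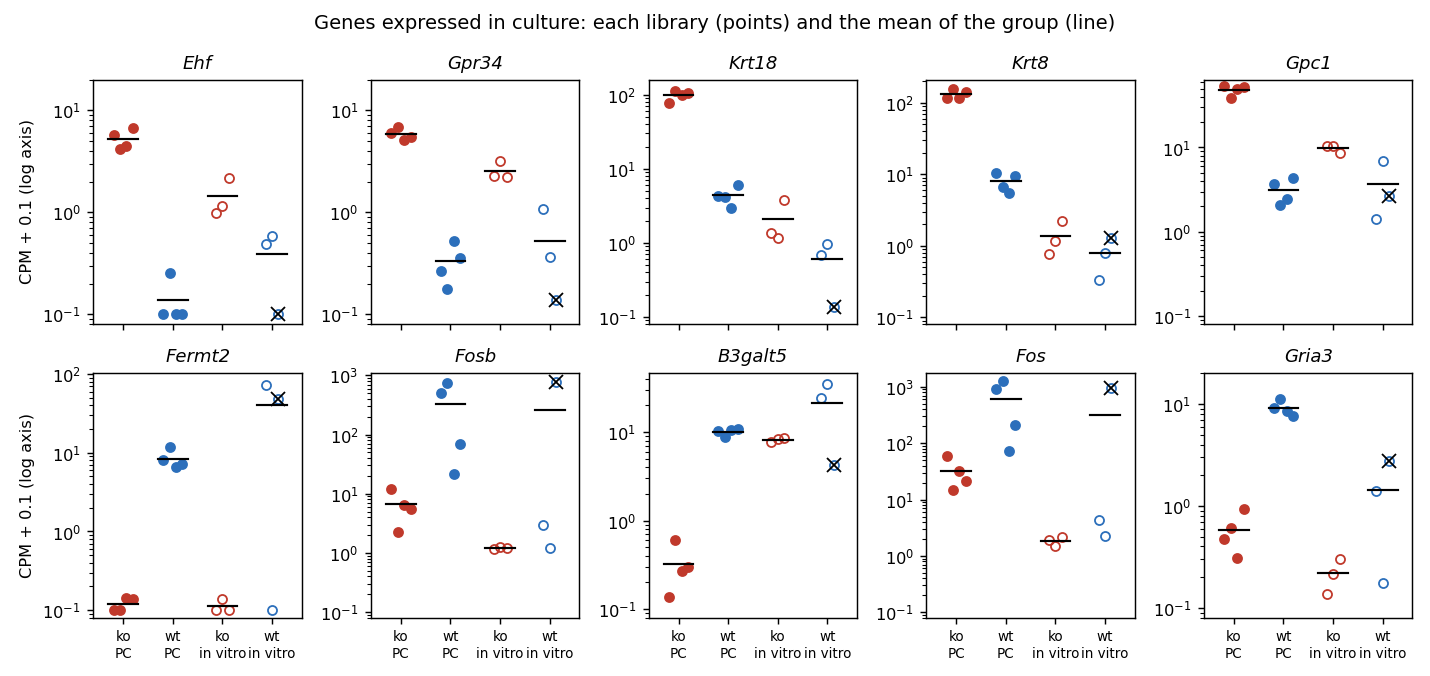
Level of the 10 named genes that were expressed in culture, as CPM plus 0.1 on a log axis, in each PC library (filled) and each culture (open) of NFKBIE-ko (red) and NFKBIE-wt (blue), with group means as lines and a cross on replicate 3 of the NFKBIE-wt cultures. The upper row shows the genes that rose and the lower row those that fell, with 962 CPM of Fos in the crossed culture against at most 4.23 CPM in the others.

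To describe functions across the genome, 33 lists of marker and pathway genes were counted, which hold 172 of the 1702 called genes. Over all genes tested, 9.97% were higher and 3.5% lower. Lists of host cells come first. In the list of resident peritoneal macrophages, 9 of 18 genes rose and 0 fell (median log2 fold change 1.49, against -0.01 for all genes), and 8 of the 9 were low in culture. That is 8 of the 15 members low in culture (53.3%), against 38.9% of all such genes. Selp, the adhesion molecule P-selectin, had 22.5, 46.1, 16.6 and 28.9 CPM in NFKBIE-ko against 4.54, 1.36, 5.43 and 6.17 CPM in NFKBIE-wt (2.71, SE 0.48, adjusted p = 0.00256). Adgre1, which encodes the macrophage antigen F4/80, had 195 to 291 CPM against 23.1 to 66.5 CPM (2.31, SE 0.31, adjusted p = 0.000671). Gata6, the transcription factor that defines the resident cells, was called as well (3.28 against 0.731 CPM on average, 2.17), whereas Timd4 (1.34), Prg4 (1.26) and Vsig4 (-0.35) were not called. The summed level of the list was 3237 to 5642 CPM in NFKBIE-ko and 715 to 3100 CPM in NFKBIE-wt. Saa3, serum amyloid A3, made up 49.0% and 70.3% of it and was not called (2122 against 1376 CPM, 0.62, adjusted p = 0.388). Without Saa3 the sums were 1807 to 2588 and 307 to 762 CPM.

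Genes of macrophages in general followed, with 10 of 16 higher and 0 lower (median 1.31). Of the 9 members low in culture 4 rose (44.4%, against 38.9% of all such genes). Lyz2, lysozyme, had 1693, 2444, 1919 and 2064 CPM against 576, 210, 262 and 437 CPM (2.45, SE 0.32, adjusted p = 0.000552). Itgam, the CD11b chain of complement receptor 3, had 475 to 687 CPM against 75.0 to 177 CPM (1.92, SE 0.27, adjusted p = 0.000671). Mertk, a receptor for apoptotic cells, had 33.0 ± 5.59 against 9.31 ± 4.07 CPM (1.82, SE 0.31). Apoe (0.23) was not called, and Cd14 (0.87, adjusted p = 0.0332) and Cd163 (-0.92, adjusted p = 0.0168) missed the fold threshold. Of 12 genes of monocytes and small peritoneal macrophages, 5 rose and 1 fell, among them F13a1 with 364 to 487 CPM against 41.9 to 84.8 CPM (2.49, SE 0.22, adjusted p = 4.43e-05), Fcgr4 (1.32, adjusted p = 0.0309) and Arg1, arginase (1.18, adjusted p = 0.0204). The gene that fell was Ear2, a ribonuclease (0.276 against 1.99 CPM, -2.83, adjusted p = 0.000373). Chil3 (54.2 against 105.7 CPM, -0.96, adjusted p = 0.00895) and Plac8 (1077 against 1481 CPM, -0.46, adjusted p = 0.00676) were lower without overlap but missed the fold threshold, and Ccr2, the chemokine receptor of classical monocytes, was at -0.49 (adjusted p = 0.0788). Of the 7 members low in culture 3 rose (42.9%, against 38.9% of all such genes). Only 3 of the 12 rose without NFKBIE-wt PC replicate 3 or without NFKBIE-ko PC replicate 2: Fcgr4 then stood at 1.24 (adjusted p = 0.0846) and 1.04 (adjusted p = 0.067), and Arg1 at 1.14 (adjusted p = 0.0626) and 1.102 (adjusted p = 0.0527). Without NFKBIE-wt PC replicate 2 Arg1 stood at 0.92.

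**Figure D4:**
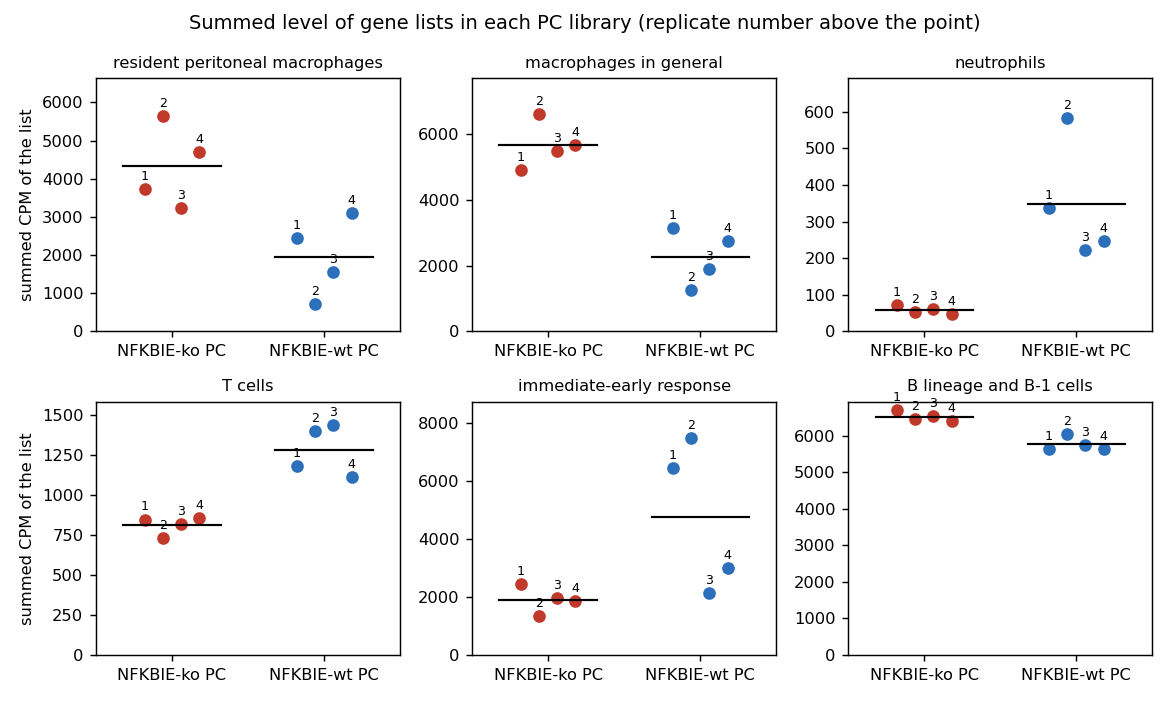
Summed level in CPM of the tested genes of 6 lists in each PC library, with the replicate number above each point and the group mean as a line. NFKBIE-ko libraries lie above NFKBIE-wt for both macrophage lists and for the B-lineage list (6403 to 6710 against 5635 to 6045 CPM), and below for neutrophils, the T-cell list and, except for replicate 1, the immediate-early list. The T-cell sum is mostly Il7r, and without it lies higher in NFKBIE-ko (315 to 384 against 145 to 162 CPM). Most of that remainder is Cd4 and Tcf7, which were also expressed in culture.

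Lists of complement, coagulation, lysosome and receptor genes, which include products of macrophages, went in the same direction. Which cells of the PC expressed them was not tested. Of the complement list 12 of 18 genes rose and 0 fell (median 1.38), against 9.97% and 3.5% of all genes. Of its 10 members low in culture 8 rose (80%, against 38.9% of all such genes). C3, the central component of complement, had 551, 873, 372 and 462 CPM against 51.3, 19.3, 35.0 and 55.2 CPM, which is 14.05-fold (log2 fold change 3.81, SE 0.42, adjusted p = 3e-04). Cfb, factor B of the alternative pathway, had 67.6 to 181 against 5.69 to 31.7 CPM (2.32, SE 0.56, adjusted p = 0.0144), and C4b 85.9 to 264 against 12.7 to 55.2 CPM (2.09, SE 0.52, adjusted p = 0.0161). All 3 subunits of C1q (C1qa 1.58, C1qb 1.28 and C1qc 1.42) and the anaphylatoxin receptors C5ar1 (1.53) and C3ar1 (1.45) were among the called genes. C3 is counted as expressed in culture because the NFKBIE-wt median was 1.37 CPM, far below its level in the PC.

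Of the coagulation and fibrinolysis list 13 of 16 genes rose and 0 fell (median 1.67), against 9.97% and 3.5% of all genes. Of its 8 members low in culture 7 rose (87.5%, against 38.9% of all such genes). Factor XIII (F13a1) is given above. F5, coagulation factor V, had 4.35 to 10.3 against 1.68 to 2.11 CPM (2.07, SE 0.26, adjusted p = 0.000112). F11r, the junctional adhesion molecule A of platelets and epithelia, had 33.0 to 39.9 against 4.66 to 6.34 CPM (2.71, SE 0.11, adjusted p = 1.85e-07) and was expressed in culture. Plau (1.57), Plaur (1.18) and Thbd (1.18) rose too, and Thbs1 (-0.84) was not called. F5, F10 and Thbs1 are also in the list of resident macrophages, and C1qa, C1qb and C1qc in that of macrophages in general, so that these counts overlap.

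Of the lysosome list 10 of 21 genes rose and 0 fell (median 0.95), and 1 of the 21 was low in culture. Over all genes tested 9.97% were higher and 3.5% lower. Ctsd, cathepsin D, had 1525 to 1902 CPM against 291 to 626 CPM (1.77, SE 0.22, adjusted p = 0.000227), and 129 to 177 CPM in the cultures. Gpnmb, a glycoprotein of phagocytes, had 164 to 219 against 11.5 to 56.2 CPM (2.52, SE 0.44, adjusted p = 0.00287), and the tetraspanin Cd63 33.2 to 44.1 against 4.17 to 16.1 CPM (1.78, SE 0.37, adjusted p = 0.00545). Among Fc and scavenger receptors, 8 of 18 rose and 0 fell (median 1.04), led by the scavenger receptor Msr1 (96.5 to 175 against 15.9 to 51.3 CPM, 1.94, SE 0.35, adjusted p = 0.00297). Only 2 of the 9 members low in culture rose (22.2%, against 38.9% of all such genes). Fcgr2b, the inhibitory Fc receptor of B cells, was not called (0.11).

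Neutrophil markers went the other way. Of 12 genes tested 9 fell and 0 rose, all 9 low in culture, with a median of -3.09. Over all genes tested 3.5% were lower. The 9 are among 11 members low in culture (81.8%, against 8.78% of all such genes that fell). The summed level of the 12 genes was 46.6 to 70.6 CPM in NFKBIE-ko and 223 to 584 CPM in NFKBIE-wt, with NFKBIE-wt replicate 2 the highest. Besides those named above, Cxcr2, the receptor for neutrophil chemokines, had 0.510 to 1.35 CPM against 6.26 to 10.9 CPM (-3.25, SE 0.30, adjusted p = 1.58e-05), and Lcn2, Mmp8, Camp and Csf3r fell as well (-2.62, -3.12, -3.07 and -1.36). Ltf (0.94) and Mmp9 (-0.99) were not called. Ly6g and Elane were too low to be tested. The neutrophil chemokine Cxcl2 was among the genes that fell (1.67 to 8.44 against 8.71 to 35.4 CPM, -1.99, SE 0.57, adjusted p = 0.0241), a call that was lost without NFKBIE-ko PC replicate 1 (-1.99, adjusted p = 0.0675) or replicate 4 (-1.92, adjusted p = 0.0642).

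Chemokine ligands otherwise rose in part, with 7 of 19 higher and 1 lower (median 0.74), 5 of the 7 being low in culture. These are 5 of 13 such members (38.5%), against 38.9% of all genes low in culture. Ccl9, a macrophage chemokine, had 504, 548, 696 and 617 CPM against 261, 77.2, 153 and 266 CPM (1.64, SE 0.37, adjusted p = 0.0096), and its relative Ccl6 had 1358 against 471 CPM on average (1.53). Ccl8, a monocyte attractant, had 7.95 ± 4.70 against 1.44 ± 1.14 CPM (SD, n = 4, log2 fold change 2.47, SE 0.63, adjusted p = 0.0134). The T-cell attractant Cxcl9 was called at a low level (3.94 against 0.0419 CPM), Ccl22 missed the fold threshold (0.74, adjusted p = 0.0427), and Ccl4 (0.52), Ccl3 (0.25) and Cxcl10 (-0.10) were not called. Of the chemokine receptors 7 of 16 rose and 1, Cxcr2, fell, against 9.97% and 3.5% of all genes. Of the rising receptors 7 of 7 were expressed in culture. Ackr2, a scavenging chemokine receptor, had 5.45 to 7.36 against 0.195 to 0.817 CPM (3.81, SE 0.34, adjusted p = 1.34e-05), and Cxcr3, the receptor of Cxcl9, had 6.12 to 9.38 against 0.546 to 1.24 CPM (3.37, SE 0.27, adjusted p = 6.99e-06). Ccr9, a gut-homing receptor, was among them (227 against 71.3 CPM, 1.67).

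T-cell markers were mixed. Of 17 genes 10 rose and 1 fell (median 1.24), against 9.97% and 3.5% of all genes. Of the 8 members low in culture 5 rose (62.5%, against 38.9% of all such genes). Cd4 had 159, 142, 129 and 128 CPM in NFKBIE-ko and 10.5, 15.5, 10.0 and 9.99 CPM in NFKBIE-wt (3.60, SE 0.15, adjusted p = 3.22e-07), and the cultures had a similar gap, 79.7 to 109 against 5.13 to 11.5 CPM. Il7r, the interleukin-7 receptor, fell (417 to 531 against 955 to 1294 CPM, -1.25, SE 0.11, adjusted p = 1.58e-05). Cd3g had 5.61 to 7.34 against 1.86 to 3.60 CPM (1.13, adjusted p = 0.00132) with 9.27 to 34.0 CPM in the cultures, and stood at 0.97 without NFKBIE-wt PC replicate 3. Cd3e (2.02 against 0.719 CPM) and Cd8a (2.92 against 0.796 CPM) were called at low levels. Trac, the constant region of the T-cell receptor alpha chain, was lower without overlap (6.69 against 13.3 CPM, -0.99). It missed only the fold threshold (adjusted p = 0.000216). The summed level of the list was lower in NFKBIE-ko (732 to 857 against 1113 to 1438 CPM), as was Il7r, which made up 58.3% and 87.8% of it. Without Il7r the sum was higher in NFKBIE-ko, with 315 to 384 against 145 to 162 CPM. When replicate 3 of either genotype was left out, 6 of the genes rose.

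Of 14 genes of cytotoxic and NK cells 8 rose and 1 fell (median 1.22), and of the 9 members low in culture 5 rose (55.6%, against 38.9% of all such genes). Gzma and Gzmb, granzymes, had 8.14 to 18.5 against 2.13 to 7.76 CPM (1.53, SE 0.38, adjusted p = 0.0106) and 10.4 to 21.9 against 3.04 to 8.83 CPM (1.55, SE 0.38, adjusted p = 0.0108). Prf1, perforin, had 5.58 to 7.26 against 1.19 to 4.03 CPM (1.35, SE 0.31, adjusted p = 0.00579). The NK-cell receptor Klrb1c fell (2.47 against 5.66 CPM, -1.20, adjusted p = 0.00913), and Klrk1 (0.12) and Klrd1 (0.14) were not called. The NFKBIE-ko cultures had at most 0.0740 CPM of Gzmb and 0 CPM of Gzma, but 0.937 to 2.13 CPM of Prf1, and the NFKBIE-wt cultures had 8.57, 0 and 2.86 CPM of Gzmb. Of dendritic cell genes, Batf3 (4.68 to 9.07 against 0.312 to 0.815 CPM, 3.80, SE 0.31, adjusted p = 8.27e-06) and Zbtb46 (1.16, SE 0.18, adjusted p = 0.000449) rose, 2 of 5 tested, and both are expressed in culture, whereas Flt3 (-0.08) was not called. Siglecf, a lectin of eosinophils, was the 1 called gene of 3 tested for mast cells, basophils and eosinophils (8.61 to 11.4 against 0.643 to 1.09 CPM, 3.47, SE 0.19, adjusted p = 8.26e-07).

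The list of mesothelial, stromal and endothelial cells divided in opposite directions, with 2 genes higher and 4 lower of 8 tested. The 2 were Krt8 and Krt18. The 4 were Col3a1 (0.392 to 0.591 against 1.21 to 8.14 CPM, -3.46, SE 0.56, adjusted p = 0.000873), Col1a2 (-2.81), Dcn (-2.14) and the mesothelial gene Lrrn4 (-1.53). The defining mesothelial markers Msln and Upk3b had at most 12 and 15 counts in any PC library and were not tested. Of 5 erythroid genes 0 were called with edgeR or DESeq2 and 0 had an unadjusted p below 0.05, and Hba-a1 had 1.96 to 20.6 against 0.931 to 19.8 CPM. Plasma cell genes had 0 of 8 called with edgeR or DESeq2 (5 at an unadjusted p below 0.05), with 532 to 616 CPM of Mzb1 against 543 to 655 CPM (-0.03) and a lower Xbp1 (-0.50, adjusted p = 0.00565).

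**Figure D5:**
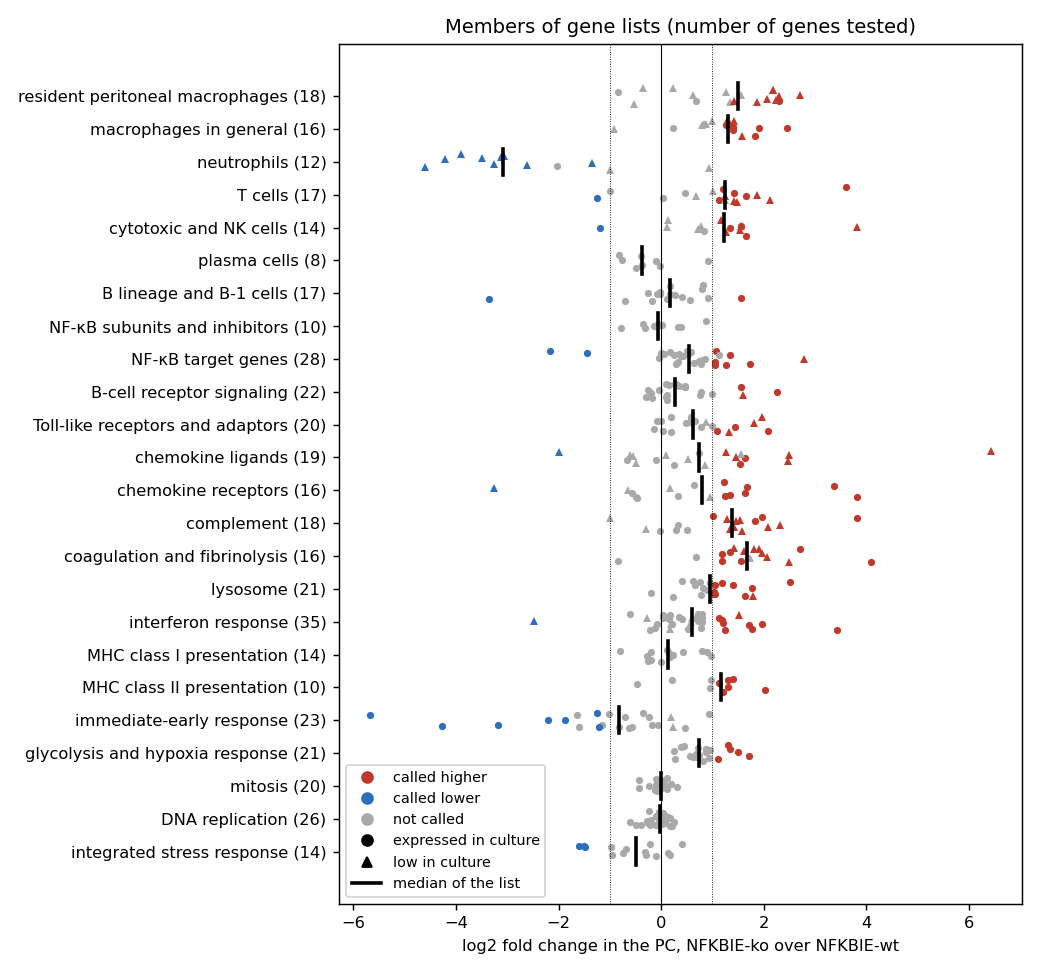
Log2 fold change in the PC of each tested gene of 24 lists, with called genes in red (higher) or blue (lower), others in gray, triangles for genes low in culture, circles for genes expressed in culture, and the list median as a black bar. Macrophage, complement and coagulation lists lie to the right (medians of 1.31 to 1.67), neutrophils to the left (-3.09), and mitosis and DNA replication at 0.

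Of 10 NF-κB subunits and inhibitors other than Nfkbie, 0 were called with edgeR and 0 with DESeq2, and 4 had an unadjusted p below 0.05. Nfkb2, the p100 precursor of the non-canonical pathway, had 193 to 245 CPM in NFKBIE-ko against 110 to 129 CPM in NFKBIE-wt (0.87, SE 0.09, adjusted p = 3.38e-05). Nfkbia, the gene of IκBα, was 0.34 lower (SE 0.12) with overlapping libraries and an adjusted p of 0.0471. Nfkb1, the p105 precursor, was 0.40 higher (171 against 129.7 CPM, SE 0.08, adjusted p = 0.00267), without overlap. Rela (-0.14, adjusted p = 0.112), Relb (-0.06, adjusted p = 0.51) and Rel (-0.06, adjusted p = 0.898) were not called.

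Of 28 NF-κB target genes 7 rose and 2 fell (median 0.55), against 9.97% and 3.5% of all genes. Ebi3, a subunit of interleukins 27 and 35, had 10.8 to 12.4 against 3.16 to 4.16 CPM (1.72, SE 0.13, adjusted p = 4.67e-06). The survival genes Bcl2a1b (1.34), Bcl2a1d (1.26) and Bcl2l1 (1.05) and the receptors Cd40 (1.06) and Fas (1.07) rose as well. Icam1, an adhesion molecule, was higher without overlap and missed only the fold threshold (0.78, adjusted p = 5.16e-05). Tnfaip3 (0.51), Cd83 (0.29) and Birc3 (0.05) were not called. Il4i1, an amino acid oxidase, fell (28.3 to 56.7 against 89.6 to 120 CPM, -1.44, SE 0.20, adjusted p = 0.000447), and so did Gadd45b, a stress sensor (10.1 to 15.2 against 19.7 to 98.4 CPM, -2.16, adjusted p = 0.0204). Gadd45b was not called without NFKBIE-ko PC replicate 1 (-2.06, adjusted p = 0.0606) or replicate 2 (-2.12, adjusted p = 0.0574), and 4 of the 28 rose without NFKBIE-wt PC replicate 2.

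Of 22 genes of B-cell receptor signaling 3 rose and 0 fell (median 0.28), which is 13.6% called, against 13.5% of all genes. Rasgrp3, an activator of Ras downstream of diacylglycerol, had 48.3 to 65.7 against 10.3 to 15.4 CPM (2.27, SE 0.15, adjusted p = 3.21e-06). Cd22, an inhibitory coreceptor, had 26.62 to 38.02 against 8.49 to 14.9 CPM (1.55, SE 0.19, adjusted p = 0.000165), and Vav3 7.71 to 9.11 against 2.42 to 2.96 CPM (1.604, SE 0.14, adjusted p = 1.12e-05). Btk (0.16, adjusted p = 0.0373), Cd79a (0.26, adjusted p = 0.0135) and Cd79b (-0.25, adjusted p = 0.0321) missed only the fold threshold, and Syk (-0.03) was not called. In the B-lineage list 1 gene of 17 rose, Cd22, and 1 fell, the complement receptor Cr2 (0.944 to 1.14 against 8.75 to 13.7 CPM, -3.35, SE 0.18, adjusted p = 7.28e-07). Pax5 was at -0.03, and Ebf1 was lower but missed the fold threshold (-0.70, adjusted p = 0.000322).

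Toll-like receptors and their adaptors had 6 of 20 genes higher and 0 lower (median 0.63), against 9.97% and 3.5% of all genes. Irak3, an inhibitor of the pathway, had 27.6 to 30.6 against 5.30 to 8.23 CPM (2.08, SE 0.14, adjusted p = 2.01e-06). Tlr8 had 7.33 to 9.14 against 1.41 to 3.11 CPM (1.98, SE 0.23, adjusted p = 7.98e-05) and Tlr2 18.4 to 27.9 against 7.41 to 9.40 CPM (1.44, SE 0.13, adjusted p = 1.86e-05). Tlr9, which senses DNA in B cells, was 0.67 higher (adjusted p = 0.00626) and missed the fold threshold, and Myd88 was at 0.03.

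Antigen presentation differed by class. Of 10 genes of the MHC class II pathway 6 rose and 0 fell (median 1.17), against 9.97% and 3.5% of all genes. All 10 were expressed in culture. H2-Aa, a class II chain, had 510, 727, 474 and 537 CPM against 216, 196, 190 and 248 CPM (1.40, SE 0.14, adjusted p = 3.5e-05). Ciita, the class II transactivator, had 20.1 to 33.0 against 8.53 to 12.2 CPM (1.31, SE 0.17, adjusted p = 0.000175), and H2-Oa, a modulator of peptide loading in B cells, 22.4 to 24.1 against 4.89 to 6.66 CPM (2.03, SE 0.12, adjusted p = 1.07e-06). Of 14 genes of MHC class I 0 were called with edgeR or DESeq2, and 8 had an unadjusted p below 0.05 (median 0.13): B2m had 2925 to 3444 against 2558 to 2940 CPM (0.17, adjusted p = 0.117) and H2-D1 2176 to 2542 against 1888 to 2370 CPM (0.16, adjusted p = 0.198).

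Interferon response genes had 9 of 35 higher and 1 lower (median 0.60), against 9.97% and 3.5% of all genes. Zbp1, a sensor of nucleic acids, had 59.6, 124, 78.6 and 59.2 CPM against 29.5, 16.1, 18.5 and 29.5 CPM (1.78, SE 0.31, adjusted p = 0.00235). The GTPases Iigp1 (6.95, 69.8, 15.0 and 12.2 against 3.60, 0.663, 1.75 and 3.64 CPM, 3.44, adjusted p = 0.0214) and Tgtp1 (5.25, 30.8, 9.91 and 6.59 against 5.23, 1.95, 2.02 and 4.29 CPM, 1.97, adjusted p = 0.0429) rested on few libraries, with NFKBIE-ko replicate 2 the highest for each. Iigp1 was not called without NFKBIE-wt PC replicate 2 (3.12, adjusted p = 0.0572) or replicate 3 (3.31, adjusted p = 0.0624), and Tgtp1 was not called in 5 of the 8 fits that each left out 1 library. Irf7 (0.73) and Ifit1 (0.18) were not called. Without NFKBIE-wt PC replicate 3 the list had 5 genes higher, and without replicate 2 it had 6.

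Immediate-early genes had 0 of 23 higher and 7 lower (30.4%, against 3.5% of all genes, median -0.83). Besides Fos and Fosb these were Jun (43.5 to 71.2 against 81.5 to 893 CPM, -3.18, adjusted p = 0.0157), Fosl2 (-2.20), Ier2 (-1.88), Junb (-1.26) and Dusp1 (-1.20). Egr1 (-1.63) and Zfp36 (-1.60) were not called, and Nr4a1 was at -0.05. The summed level was 6460 and 7495 CPM in NFKBIE-wt replicates 1 and 2, 2151 and 2984 CPM in replicates 3 and 4, and 1345 to 2435 CPM in NFKBIE-ko. The count moved with single libraries, to 4 when NFKBIE-wt PC replicate 1 or 2 was left out, to 4 also without replicate 3 or 4 of NFKBIE-ko, and to 3 without its replicate 2, when Jun stood at -3.07 (adjusted p = 0.0501).

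Of 21 glycolysis and hypoxia genes 5 rose and 0 fell, the median was 0.73, and in 20 of 21 all NFKBIE-ko libraries were above all NFKBIE-wt libraries (such a separation in either direction was seen in 41.9% of all genes). Slc16a3, a lactate exporter, had 88.5 to 132 against 26.59 to 50.01 CPM (1.50, SE 0.22, adjusted p = 0.000703). Aldoc, an aldolase, had 9.10 to 13.95 against 3.07 to 3.84 CPM (1.72, SE 0.17, adjusted p = 2.67e-05), and Egln3, an oxygen sensor, 49.4 to 71.5 against 16.8 to 30.7 CPM (1.35, SE 0.20, adjusted p = 0.00062). In the integrated stress response 3 of 14 fell and 0 rose (median -0.50), with Atf5 at 40.5 to 48.2 against 111 to 146 CPM (-1.51, SE 0.10, adjusted p = 1.66e-06), Ddit3 at 6.67 to 7.97 against 10.2 to 36.2 CPM (-1.61, SE 0.35, adjusted p = 0.006) and Chac1 at -1.48. Of 15 endoplasmic reticulum chaperones 1 fell, Dnajb9 (-1.07, adjusted p = 0.00686), which stood at -0.80 without NFKBIE-wt PC replicate 2.

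Neither list of proliferation genes had a call with edgeR or DESeq2, while 2 mitosis and 6 replication genes had an unadjusted p below 0.05. Of 20 mitosis genes (median -0.01) Mki67 had 197 to 326 against 186 to 369 CPM (0.07, adjusted p = 0.837) and Top2a 275 to 398 against 206 to 361 CPM (0.30, adjusted p = 0.226). Of 26 DNA replication genes (median -0.03) Pcna had 251 to 314 against 228 to 257 CPM (0.17, adjusted p = 0.118), and Mcm6 was 0.21 lower (adjusted p = 0.0337). Of 25 cholesterol and fatty acid genes 1 rose and 0 fell. Adhesion genes had 7 of 25 higher and 2 lower, against 9.97% and 3.5% of all genes. The largest changes were those of Itga8 (6.46 to 8.37 against 0.600 to 1.798 CPM, 2.83, SE 0.30, adjusted p = 4.04e-05), Itga9 (20.0 to 34.7 against 1.91 to 7.24 CPM, 2.29, SE 0.36, adjusted p = 0.00107) and Fermt2.

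Genes of tuft cells and of epithelia were looked up after Pou2f3, Gnat3, Krt8 and Krt18 had been seen. The following lists are described without support for their direction. They also hold genes named above for their change, such as Ehf among the tuft cell genes and F11r among the junction genes. Of 26 tuft cell genes tested 19 rose and 1 fell, against 9.97% and 3.5% of all genes, 10 of the 19 being low in culture. Which cells of the PC expressed these 26 genes was not tested. Their summed level overlapped between the genotypes (2019 to 2344 CPM in NFKBIE-ko against 1867 to 2319 CPM in NFKBIE-wt). The taste-signaling genes Gng13 (8.26 against 0.417 CPM, 4.30), Gnb3 (166 against 22.4 CPM, 2.89), Plcb2 (18.5 against 4.16 CPM, 2.15), Tas1r3 (2.80 against 0.58 CPM, 2.27) and the ion channel Trpm5 (84.6 against 29.2 CPM, 1.53) were among the risers. So were Sh2d7 (8.09 against 0.431 CPM, 4.21), Pou2af3, a cofactor of Pou2f3 (40.4 against 7.49 CPM, 2.43), and the eicosanoid enzymes Ptgs1 (30.8 against 4.78 CPM, 2.69), Alox5 (15.3 against 3.31 CPM, 2.20) and Hpgds (8.96 against 3.02 CPM, 1.56). Other genes of these cells were not among the risers: Dclk1 had at most 7 counts in any PC library, Pou2af2 was at -0.55 (108 against 158 CPM, adjusted p = 0.00189), Il17rb at 0.09 and Rgs13 fell (-2.07). Of 13 keratin and junction genes 9 rose and 0 fell, with Cdh17, an adhesion molecule (109 against 11.4 CPM, 3.26), and Dst (17.0 against 1.62 CPM, 3.38), while Epcam (0.17) and Cdh1 (0.86) were not called.

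Gene symbols grouped by their stem gave a coarse view beyond the lists, also chosen after the values were seen. There were 130 stems with at least 10 genes tested, and of all genes 9.97% were higher and 3.5% lower. Serpinb protease inhibitors had 8 of 11 genes higher (72.7%) and 0 lower. The stem Anxa had 4 of 10 higher (40%) and 0 lower, namely annexin genes and Anxa2r1, which is named as an annexin receptor. The stem Rab had 11 of 58 higher (19.0%) and 1 lower. It counts symbols and not only Rab GTPases, since Rab11fip1, Rab11fip3, Rab11fip4, Rab11fip5 and Rab3il1 were among those called. Gpr receptors had 9 of 27 higher (33.3%) and 2 lower. Collagens had 3 of 10 lower (30%) and 0 higher.

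Several calls rested on the spread of the 8 PC libraries. In the fit of all 22 libraries, which also holds both libraries that stood apart, the calls of Ngp, S100a8, S100a9, Arg1, Zbtb46, Gzma, Gzmb, Cxcl2, Ccl9, Itga9, Iigp1, Tgtp1, Ciita, Aldoc, Slc16a3 and Egln3 were lost, with adjusted p-values from 0.0503 for Ccl9 to 0.245 for Tgtp1. For S100a9 the log2 fold change there was -3.90 (adjusted p = 0.0617) and for Gzmb 1.56 (adjusted p = 0.168). In that fit 5 genes of resident macrophages, 5 of macrophages in general, 8 of coagulation, 4 of T cells, 2 of cytotoxic and NK cells, 3 chemokine ligands, 4 NF-κB targets, 4 interferon genes and 1 glycolysis gene rose, and 2 neutrophil genes and 1 stromal gene fell.

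The effect of genotype in the PC was then set against that in culture. In vitro, edgeR called 4 genes higher and 0 lower of 11722 tested, and 164 and 238 passed the fold threshold with an unadjusted p under 0.05. Without replicate 3 of the NFKBIE-wt cultures it called 7 and 2. Of the genes expressed in culture that rose in the PC, 439 of 599 tested in vitro (73.3%) had the same sign there, and of those that fell 265 of 282 (94.0%), against 65.7% of all 11468 genes tested in both. Without that culture the shares were 69.8%, 87.2% and 60.3%. The median in vitro log2 fold change of these risers was 0.51 and of the fallers -0.82, which became 0.33 and -0.55 without it.

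A test of the difference itself, the effect in the PC minus the effect in vitro, called 456 of 13213 genes as more positive in the PC (3.45%) and 42 as more negative (0.318%). Of the risers that were low in culture 215 of 652 had such a more positive effect, and of those expressed in culture 130 of 608. Of the fallers, 3 of 147 and 27 of 295 had a more negative effect. Without replicate 3 of the NFKBIE-wt cultures these numbers were 107, 219, 6 and 49. Individual cultures weighed heavily, since leaving out NFKBIE-ko in vitro replicate 1, 2 or 3 left 42, 92 or 69 genes as more positive. Leaving out NFKBIE-wt in vitro replicate 1 or 2 gave 754 or 1007. The difference was not called for Cd4 (0.05, and 0.30 without replicate 3 of the NFKBIE-wt cultures), H2-Aa (0.14 and 0.49), Ciita (-0.18 and 0.27), Slc16a3 (0.10 and 0.63) or Ddit3 (0.03 and -0.63). Adjusted p-values of edgeR were at least 0.909 with and 0.418 without that culture. It was called with and without that culture for C3 (5.54 and 4.35), Ctsd (1.91 and 1.96) and B3galt5 (-4.04 and -3.56). In the cultures H2-Aa had 1259 to 1334 CPM in NFKBIE-ko cultures against 240 to 986 CPM in NFKBIE-wt cultures, while C3 had at most 4.57 CPM in any culture.

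Per transcript, 34098 transcripts were tested, of which 1413 (4.14%) were higher and 651 (1.91%) lower. They belong to 1159 and 528 genes. Of the 1260 genes called higher 332 had no transcript called higher, and 165 of the 442 lower genes had none called lower. Conversely, 231 and 251 genes had a called transcript in the same direction without a call of the gene. Most called transcripts were protein-coding (1653), and 178 were retained introns and 91 targets of nonsense-mediated decay. In 6 genes transcripts were called in opposite directions. Spsb2, a ubiquitin ligase adaptor, had 6.90 against 3.07 CPM of ENSMUST00000052727 (1.17, adjusted p = 0.0305) and 3.26 against 6.56 CPM of ENSMUST00000047760 (-1.01, adjusted p = 0.00756). Trio, a guanine nucleotide exchange factor, had 6.99 against 1.48 CPM of ENSMUST00000090247 (2.24, adjusted p = 0.00179) and 16.2 against 61.1 CPM of ENSMUST00000226644 (-1.91, adjusted p = 0.0038). SALMON divides shared reads between transcripts, so that such splits within a gene are uncertain.

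Promoter letters were counted because AP-1 and NF-κB genes are among those compared. RefSeq promoters (GRCm38.p6, the 250 bases before a start) were found for 9375 of 12628 tested gene symbols. The AP-1 motif TGANTCA, which reads the same on both strands, was in 47 of 475 promoters of risers low in culture (9.89%), in 46 of 446 of risers expressed in culture (10.3%), in 7 of 101 and 9 of 218 of the corresponding fallers (6.93% and 4.13%) and in 5.42% of all. The NF-κB consensus motif, searched on both strands, was in 4, 7, 1 and 2 promoters of these groups (0.842%, 1.57%, 0.99% and 0.917%) and in 0.501% of all. The octamer ATGCAAAT, bound by POU factors, was in 13, 9, 1 and 6 promoters (2.74%, 2.02%, 0.99% and 2.75%) and in 1.51% of all. None of these motifs contains another, and a match is a description of the window only.

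As an example of each of the first 2 motifs, the 250 bases before the start of Mmp10, which rose, and of Nfkbia, which was not called, are given with the matching letters in capitals. The first lies on the plus strand of chr9:7502092-7502341 and the second on the minus strand of chr12:55492648-55492897 in GRCm38.p6.
Mmp10 promoter: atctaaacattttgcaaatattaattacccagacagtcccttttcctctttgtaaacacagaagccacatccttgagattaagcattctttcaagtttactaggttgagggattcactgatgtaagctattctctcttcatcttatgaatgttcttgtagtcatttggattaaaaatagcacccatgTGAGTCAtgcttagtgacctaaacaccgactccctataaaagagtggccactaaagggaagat
Nfkbia promoter: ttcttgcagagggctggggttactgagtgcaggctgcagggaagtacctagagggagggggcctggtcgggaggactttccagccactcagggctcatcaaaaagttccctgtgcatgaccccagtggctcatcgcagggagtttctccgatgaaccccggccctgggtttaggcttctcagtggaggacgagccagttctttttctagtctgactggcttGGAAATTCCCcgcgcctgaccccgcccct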

How the data were processed

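RNA of unpurified PC cells was sequenced as paired-end reads. Per the study's methods and the submitters' processing notes, the authors quantified transcripts with Salmon 1.8, and they deposited 1 table of estimated counts for 62492 transcripts in 22 samples. Estimated counts were rounded to whole numbers. Transcripts were matched to the GENCODE mouse annotation on GRCm39 (62147 matched, 17023 genes) and summed by gene. Transcripts without a match held 0.56% of PC counts.

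The 8 PC libraries were fitted with edgeR 4.0.16 in R 4.3.3 (filterByExpr, TMM scaling, robust quasi-likelihood test, no covariates), and p-values were adjusted by Benjamini-Hochberg over all genes or transcripts. The authors used DESeq2, which was run here as an alternative (version 1.42.0). The difference between PC and in vitro effects was an interaction in a fit of both compartments. CPM values are TMM-scaled, and ratios for genes with at most 12 counts in a group carry exact 95% binomial intervals, which cover counting error only. Replicates of a genotype differed by more than sampling noise (chi-square per degree of freedom 14.3 to 42.3). Nothing in the labels ties a PC library to 1 mouse, so p-values measure the spread between these libraries.

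The comparison and the gene lists were chosen with earlier results of these data known. Genes were named by a rule: Nfkbie, the 5 called protein-coding genes with the largest fold change in each class and direction (at least 5 CPM in the higher group, no overlap, no clone names), and from each list the 3 called members with the largest change and at least 5 CPM in the higher group or, with none called, the 2 most abundant. Genes named beyond that rule were chosen after their values were seen. Alternatives were other size factors, DESeq2, no filter and a stricter filter (10 CPM in 4 libraries), all 22 libraries, a replicate block, no fold threshold, culture limits of 0.5 and 5 CPM, mean in place of median, and each library left out. A list of sex-linked genes had no member among the genes tested. Some genes that the rule would name are not reported here.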

Additional observations from a re-analysis of the deposited data

Results flagged for a closer look

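In 13 of 188 groups of 4 PC values, 1 library lay far from the other 3 by Dixon's criterion, which chance alone would flag in about 1 in 20 groups. NFKBIE-wt replicate 2 was apart for Ehf (0.156 CPM, the others at 0), Itgam (75.0 CPM, the others from 165 to 177), F13a1 (41.9 CPM, the others from 80.8 to 84.8), Cd4 (15.5 CPM, the others from 9.99 to 10.5) and Rasgrp3 (15.4 CPM, the others from 10.3 to 11.01). NFKBIE-ko replicate 2 was apart for Fcgr4 (202 CPM, the others up to 113), Ackr2 (7.36 CPM, up to 5.70), Cfb (181 CPM, up to 85.9), Ctsd (1902 CPM, up to 1557), Iigp1 (69.8 CPM, up to 15.0) and Mcm6 (232 CPM, up to 205). NFKBIE-wt replicate 4 was apart for Hba-a1 (19.8 CPM, up to 3.35) and had the lowest total count of its group (24335596).

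For 22 named genes the effect of genotype differed between the PC and culture by an interaction test, given here as the PC effect minus the in vitro effect on the log2 scale (adjusted p at most 0.0449971 with edgeR). Sizes for genes near 0 in culture depend on the prior count of the fit. Macrophage and complement genes made up most of them: Lyz2 (9.38), F13a1 (9.69), Ccl9 (7.74), Cd63 (8.41), Gpnmb (6.02), C3 (5.54), Arg1 (5.28), F5 (4.25), Msr1 (4.21), Mertk (2.66), Itgam (2.41) and Ctsd (1.91). Granzymes Gzma (8.77) and Gzmb (8.01), the receptors Tlr8 (4.62), Tlr2 (1.31) and Siglecf (4.40), the inhibitor Irak3 (1.54), and Mmp10 (6.95), Krt8 (3.24) and Gpc1 (2.55) were also more positive in the PC. B3galt5 was more negative (-4.04). Without replicate 3 of the NFKBIE-wt cultures, 14 of the 22 differences were still called, and those of Krt8 (adjusted p = 0.0555), Mertk (0.084), F13a1 (0.0848), Tlr8 (0.0821), Ccl9 (0.0817), F5 (0.0581), Msr1 (0.105) and Cd63 (0.102) were not. Replicate 1 of the NFKBIE-wt cultures stays in both fits. It had 13.3 CPM of Lyz2, 8.57 CPM of Gzmb and 5.09 CPM of Gpnmb, against 0.19, 0 and 0.0379 CPM in replicate 2.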

How the results depend on the processing

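Of the alternatives for the main counts and Nfkbie, 152 values stayed on their side of the threshold or within 1.5 times, 52 moved, 14 became weaker and 4 stronger, and none reversed. The causes were not tested, beyond that a stricter filter tests fewer genes and dropping the fold threshold admits more. With the stricter filter 516 genes rose and 142 fell (low in culture 141 and 9, expressed 375 and 133), and 577 and 245 transcripts. With no fold threshold 2846 genes rose and 2642 fell (expressed 2147 and 2477), and 2692 and 1728 transcripts. In a fit of all 22 libraries 640 transcripts rose and 316 fell, 342 genes low in culture rose, and Nfkbie stood at -0.55. DESeq2 called 1177 transcripts and 246 genes low in culture as lower, and 953 and 74 genes by the difference between compartments. Without a filter 270 genes low in culture fell. With a limit of 0.5 CPM 89 genes low in culture fell, and with 5 CPM 271 did, while 378 and 171 genes expressed in culture rose and fell.

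The replicate numbers did not pair the samples (correlations of -0.197, -0.183, -0.149 and 0.0437, and 0 of 8 libraries correlated best with their own number). With the replicate block 1154 genes rose and 402 fell, and 673 and 258 transcripts. Calls of Fos, Fosb, Jun, Cfb, C4b, Ccl8, Cxcl2, Fcgr4, Arg1, Gadd45b, Iigp1 and Tgtp1 were lost there (adjusted p from 0.0529 for Arg1 to 0.167 for Tgtp1), Dnajb9 stood at -0.99, and 6 complement, 4 interferon and 3 monocyte genes rose and 1 immediate-early gene fell.

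Of the Nfkbie transcripts, ENSMUST00000024742 stood at -0.65 with all 22 libraries (adjusted p = 0.395) and at -0.65 with the replicate block (0.0878), and ENSMUST00000233929 at -1.93 with the block (0.0564). ENSMUST00000233379 passed with DESeq2 (1.00), the stricter filter (0.96) and all 22 libraries (1.03). Leaving out each PC library gave ranges of -0.80 to -0.56, -2.21 to -1.51 and 0.76 to 1.17 for these. The adjusted p of ENSMUST00000024742 missed its threshold in 6 of the 8 and that of ENSMUST00000233929 in 4. The difference between compartments ranged from 42 genes when NFKBIE-ko in vitro replicate 1 was left out to 1007 for replicate 2 of the NFKBIE-wt cultures, and from 4 to 126 in the other direction. Differences not called changed sign when 1 library was left out: Hbb-bs between -1.17 and 1.71 (with -0.20, -0.01 and -0.26 among them), Hba-a1 between -0.61 and 2.15, Mzb1 between -0.073 and 0.021 (0.0069 among them) and Mki67 between -0.051 and 0.31 (with -0.028 and -0.043). Of values for single genes and lists, 2030 stayed, 79 moved and 62 became weaker.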
